A study of Mus musculus with 6 samples.

Results

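H3K9me3 is the trimethylated form of lysine 9 on histone H3. The start sites of 424 noncoding RNA genes lay within 406 regions that carried a called H3K9me3 peak in every library of both conditions. The peak of a library could fall anywhere in the region, and 169 of the 424 start sites were under a peak in all 4 libraries. The 406 regions were taken from 70705 merged peak regions on chromosomes 1 to 19 of the mouse genome (mm10). Of these, 26897 held a peak of all 4 libraries, and 26200 of the latter were under 20 kb wide. A start site of a lincRNA or antisense gene fell in 793 of the 26200 regions. Another 327 of those were set aside because they also overlapped a protein-coding gene, which left 466. The 406 were then chosen by the bases covered with peaks, by removing 60 regions in which the lower library of one condition covered at least 1.5 times the bases of the higher library of the other. Of the 60, 57 were higher and 3 lower in shPHF8. The stability of the 406 regions between conditions was thus set by the choice and is not a result. All contrasts of covered bases below are given as a description, with no test.

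The peaks came from chromatin immunoprecipitation and sequencing (ChIP-seq) of mouse neural stem cells (NSCs), which were isolated from the cerebral cortex of C57BL/6J fetuses and grown with EGF and FGF. The cells carried a lentiviral scramble shRNA (shCTR, 2 libraries) or a lentiviral shRNA against PHF8 (shPHF8, 2 libraries), and the study's methods describe puromycin selection of transduced cells. The comparison asks where H3K9me3 lies in cells with less of this demethylase. The labels do not say which hairpin was used or whether the 2 libraries of a condition came from separate cultures, so the spread between them may be technical, and the lists hold no measure of the Phf8 level.

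H3K9me3 is the histone mark of constitutive heterochromatin. It is written by methyltransferases such as SETDB1 and SUV39H, is bound by HP1 proteins, and covers pericentromeric satellites, many transposable elements, zinc finger gene clusters and the silent allele of imprinted loci. PHF8 is a Jumonji demethylase that acts on lower methylation states of lysine 9 and on monomethylated H4K20. Long noncoding RNAs are transcripts without a protein product, many of them expressed in few tissues. Some of their start sites lie far from protein-coding genes, and others lie within or near them.

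The 4 libraries differed in extent. On the autosomes, shCTR replicates 1 and 2 held 53039 and 53852 peaks covering 156 and 159 Mb, and shPHF8 replicates 1 and 2 held 44205 and 55344 peaks covering 219 and 197 Mb. The median peak width was 2400 bp in each shCTR library, and 4200 and 2800 bp in the shPHF8 replicates 1 and 2. The library shPHF8 replicate 1 therefore stood apart by having the fewest and widest peaks. The lists give positions only, with no peak height or read count, and a covered base says no more than that a called peak lay there. Start sites of the NSC markers Sox2, Nes, Vim, Hes1, Hes5, Fabp7 and Slc1a3 were under no peak in any library, whereas that of Pax6 was covered in all 4. Peak positions do not measure expression of these markers.

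The windows of 5 start sites are shown for the sequence that lies beneath the peaks, from 3 of the widest regions whose RNA has a given name and from the 2 widest regions of all. Each window runs from 250 bases before to 50 bases after the start site, 5′ to 3′ on the strand of the gene, with CG dinucleotides in capitals. The mm10 positions are chr6:52102699-52102998 on the plus strand for Halr1 and chr1:73407520-73407819 on the minus strand for Pinc. They are chr19:53464747-53465046 on the minus strand for Mirt1, chr5:127107819-127108118 on the plus strand for Gm43475 and chr9:43520955-43521254 on the minus strand for Gm36855.
Halr1: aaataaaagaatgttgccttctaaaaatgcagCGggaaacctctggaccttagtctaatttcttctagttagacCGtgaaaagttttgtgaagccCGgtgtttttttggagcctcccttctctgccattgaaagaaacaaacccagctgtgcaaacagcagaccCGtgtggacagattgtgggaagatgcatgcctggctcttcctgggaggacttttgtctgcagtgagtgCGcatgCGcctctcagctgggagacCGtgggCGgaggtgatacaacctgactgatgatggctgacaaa
Pinc: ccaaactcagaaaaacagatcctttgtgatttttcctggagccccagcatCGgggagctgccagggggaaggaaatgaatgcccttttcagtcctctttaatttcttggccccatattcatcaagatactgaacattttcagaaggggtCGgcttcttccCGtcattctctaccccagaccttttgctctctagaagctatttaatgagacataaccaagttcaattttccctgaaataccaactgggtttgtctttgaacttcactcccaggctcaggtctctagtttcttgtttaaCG
Mirt1: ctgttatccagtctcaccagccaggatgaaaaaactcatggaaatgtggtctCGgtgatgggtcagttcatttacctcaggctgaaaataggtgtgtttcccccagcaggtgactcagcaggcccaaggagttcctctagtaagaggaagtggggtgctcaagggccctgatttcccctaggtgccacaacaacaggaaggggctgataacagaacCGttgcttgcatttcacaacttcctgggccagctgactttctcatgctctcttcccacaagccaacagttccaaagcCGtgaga
Gm43475: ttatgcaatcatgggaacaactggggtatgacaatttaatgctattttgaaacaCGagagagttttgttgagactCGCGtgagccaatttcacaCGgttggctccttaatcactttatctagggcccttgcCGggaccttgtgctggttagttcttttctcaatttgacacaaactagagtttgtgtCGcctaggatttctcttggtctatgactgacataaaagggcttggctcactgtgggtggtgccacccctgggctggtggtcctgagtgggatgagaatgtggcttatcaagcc
Gm36855: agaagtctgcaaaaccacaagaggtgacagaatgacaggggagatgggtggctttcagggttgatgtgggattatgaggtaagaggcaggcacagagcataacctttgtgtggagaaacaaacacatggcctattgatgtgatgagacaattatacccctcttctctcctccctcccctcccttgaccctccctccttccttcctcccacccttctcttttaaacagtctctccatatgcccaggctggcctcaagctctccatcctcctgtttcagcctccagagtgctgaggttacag

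The 5 windows held 8, 4, 3, 6 and 0 CG dinucleotides in the order shown, and their GC content ran from 44.3% in Pinc to 51.3% in Mirt1. Repeats were soft-masked over 42.7% of the Gm36855 window and over none of the Pinc and Mirt1 windows. In shCTR replicate 1, shCTR replicate 2, shPHF8 replicate 1 and shPHF8 replicate 2, peaks covered 300, 300, 300 and 246 bases of the Mirt1 window. The Gm36855 window was covered over 0, 300, 0 and 300 bases, so its start site was under a peak in replicate 2 of both conditions and in neither replicate 1. Membership of a region required a peak of every library in the region, not at the start site itself.

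Of the 424 start sites, 169 were under a peak in all 4 libraries, 94 in 3, 68 in 2 and 93 in a single library. The number covered was 267 (63.0%) in shCTR replicate 1, 271 (63.9%) in shCTR replicate 2, 342 (80.7%) in shPHF8 replicate 1 and 307 (72.4%) in shPHF8 replicate 2. Both shPHF8 libraries were above both shCTR libraries in this count, and the order of the 4 libraries was that of their covered megabases. Over all 8122 noncoding start sites the numbers covered were 866, 897, 1081 and 978, in the same order of libraries. A start site covered in both shPHF8 libraries and in neither shCTR library was found 23 times, and the reverse 7 times, beside 92 and 46 times over all 8122. The most frequent incomplete combination was a peak in shPHF8 replicate 1 alone, at 48 start sites, against 14, 15 and 16 start sites covered only in shCTR replicate 1, shCTR replicate 2 and shPHF8 replicate 2. The width of peaks in shPHF8 replicate 1 moves with these counts, and its part in them was not tested.

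**Figure D1:**
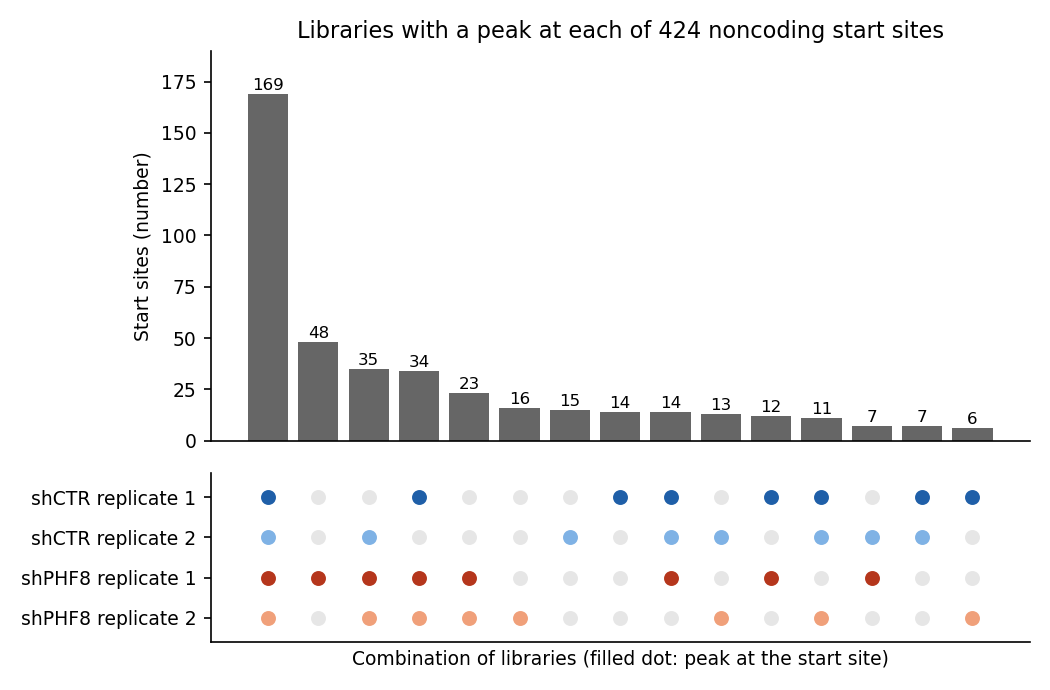
Number of the 424 noncoding start sites under a peak in each combination of the 4 libraries. Bars give start sites and filled dots below mark the libraries with a peak at the start site. A peak in all 4 libraries is the tallest bar, at 169, followed by shPHF8 replicate 1 alone at 48.

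Around the start sites, the share with a peak was highest at the start site in each library and fell on both sides. At 5 kb upstream a peak was present for 26.7, 26.4, 35.8 and 30.7% of genes in shCTR replicates 1 and 2 and shPHF8 replicates 1 and 2, and at 5 kb downstream for 34.0, 29.0, 39.9 and 33.0%. The height at the start site is fixed by the choice of regions over start sites. The flanks are bounded by the choice too, through the width limit and the removal of regions over protein-coding genes. They also count separate neighbouring peaks, so they do not show how far the calls at the start sites reached. At 10 kb upstream the shares were still 23.1, 25.0, 29.5 and 26.9%, in the same order of libraries. Within 1 kb on either side of the start site the median covered length was 1298, 1311, 1968 and 1592 bp in the same order. No covered base lay within this distance at 56, 50, 27 and 47 start sites.

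**Figure D2:**
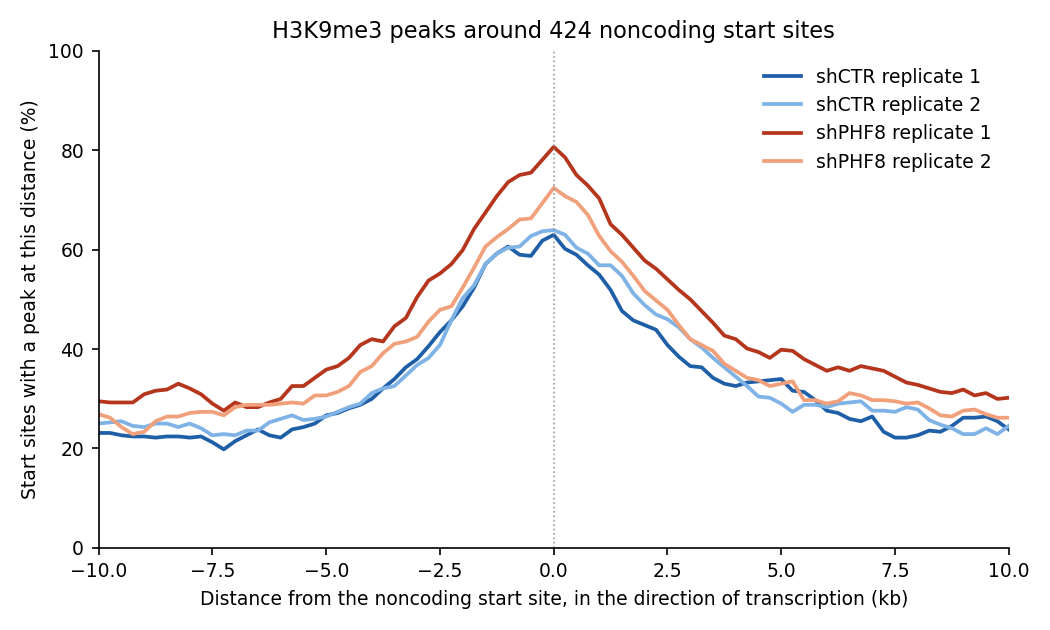
Share of the 424 noncoding start sites with a called H3K9me3 peak (%) at each distance from the start site (kb), upstream on the left and downstream on the right of 0, with 1 line per library. At 0 the lines stand at 63.0 and 63.9% for shCTR replicates 1 and 2 and at 80.7 and 72.4% for shPHF8 replicates 1 and 2.

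The start site lay anywhere in its region. Its median position was 48.2% of the way along the region in the direction of transcription, with quartiles at 24.4 and 76.4%. The region extended a median 3392.5 bp upstream and 3341 bp downstream of the start site, and 82 start sites lay within 500 bp of a region edge. The median share of the gene body under peaks was 31.9, 35.5, 47.2 and 40.0% in shCTR replicates 1 and 2 and shPHF8 replicates 1 and 2. Exons were covered to a median 31.9, 37.0, 54.4 and 42.2%. The region enclosed the whole gene for 118 of the 424 genes.

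The regions had a median width of 7200 bp, with quartiles at 5200 and 10200 bp and a range of 2200 to 19600 bp. Within them, the median covered share was 65.8% in shCTR replicate 1, 66.7% in shCTR replicate 2, 87.4% in shPHF8 replicate 1 and 72.3% in shPHF8 replicate 2. At least 90% of the region was covered in 44, 53, 178 and 82 regions, in the same order. Under 25% of the region was covered in 17, 15, 0 and 1 regions. Only 3 regions were covered to at least 90% in every library, and 218 to at least 50%.

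**Figure D3:**
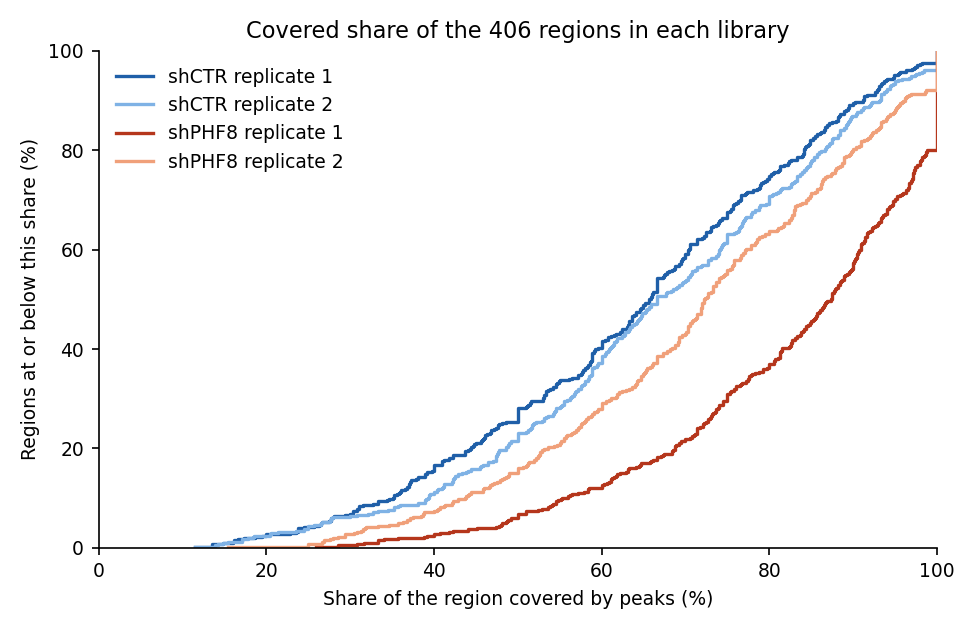
Cumulative distribution of the share of each of the 406 regions covered by peaks (%), with 1 line per library. The line of shPHF8 replicate 1 lies to the right of the others, with a median of 87.4% against 65.8, 66.7 and 72.3% in shCTR replicates 1 and 2 and shPHF8 replicate 2.

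Replicates of a condition differed over these regions. The median size of the log2 difference in covered bases between the 2 replicates was 0.38 in shCTR and 0.38 in shPHF8. Across the 406 regions, Spearman's correlation of covered shares was 0.22 between the shCTR replicates, −0.10 between the shPHF8 replicates and 0.28 between shCTR replicate 1 and shPHF8 replicate 2. The shares have the width of the merged region as a common denominator, which any of the libraries can set, so the coefficients are descriptive. The library shPHF8 replicate 1 covered the most bases in 194 regions and shCTR replicate 1 the fewest in 146.

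The median log2 ratio of covered bases (shPHF8 over shCTR, condition means) was 0.26 over the 406 regions, with quartiles at 0.00 and 0.52. It was 0.34 over all 26200 shared regions under 20 kb, to which no ratio limit was applied. Without that limit it was 0.33 over 466 regions. The same limits gave 0.22 in 994 regions over protein-coding start sites. They gave 0.32 in 11554 regions with neither a protein-coding gene nor a noncoding start site. When a library is left out or the values are scaled, the regions are chosen anew. The median was 0.13 over 379 regions without shPHF8 replicate 1 and 0.17 over 367 regions without shCTR replicate 1. Both shPHF8 libraries covered more bases than both shCTR libraries in 127 regions (31.3%), beside 38.6% of the 26200. Both covered fewer in 27 regions (6.65%), beside 5.04%, and the conditions overlapped in 252. The limit on the ratio removed the widest separations from these counts, so nothing about the regions is read from them. When each library's covered bases were scaled to an equal total, 430 regions were chosen, the higher and lower counts were 63 and 112 and the median log2 ratio was −0.084. With a library left out, the lower count was 63 of 367 and 57 of 359 regions when shCTR replicates 1 and 2 were omitted. It was 70 of 379 and 43 of 329 when shPHF8 replicates 1 and 2 were omitted. Fewer libraries then have to be apart and the regions also change, and the part of each was not tested. An exact two-sided permutation test of 2 libraries against 2 cannot give a p below 0.333.

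**Figure D4:**
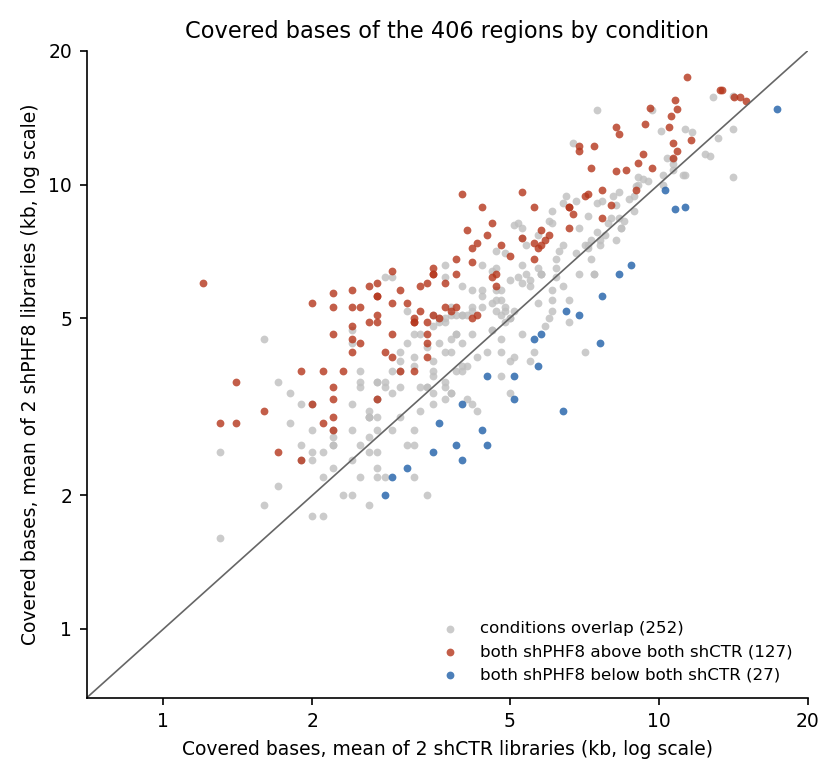
Mean covered bases (kb, log scales) of each of the 406 regions in the 2 shCTR libraries (horizontal) and the 2 shPHF8 libraries (vertical), with a line at equal values. Red points mark the 127 regions in which both shPHF8 libraries covered more than both shCTR libraries, blue points the 27 in which both covered fewer, and grey points the 252 in which the conditions overlapped.

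The 3 regions kept with the largest separation upward were Gm47134, Gm14005 and Gm6329, whose nearest libraries of the 2 conditions were 1.49, 1.46 and 1.45 times apart. Gm43666, 4930505O20Rik and Gm31138, each at 1.5 times, were left out. Downward, 3300005D01Rik (1.38 times), Gm9916 (1.38 times) and 1700112K13Rik (1.31 times) were kept, whereas Gm44724 (1.55 times), the region of 4933440J02Rik and Gm30262 (1.64 times) and Miat (2 times) were left out. Miat, a lincRNA expressed in neurons and retina, was covered over 4600, 4400, 2200 and 2200 bp of 5200 bp in shCTR replicates 1 and 2 and shPHF8 replicates 1 and 2. At the width limit, 56 regions that otherwise met the conditions were 20 kb or wider, the narrowest being that of Rncr4 at 20000 bp.

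Only 13 of the 424 genes have a given name. Symbols of predicted genes beginning with Gm made up 302, Rik clone names 72 and clone accessions 37. By type, 404 were lincRNA genes (95.3%) and 20 antisense genes (4.72%), beside 64.1 and 35.9% of all 8122 autosomal genes of these types. The choice left out regions over protein-coding genes, which antisense genes often overlap. The 13 with a given name are described below, each with covered bases in shCTR replicate 1, shCTR replicate 2, shPHF8 replicate 1 and shPHF8 replicate 2, in that order.

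The RNAs Rmst and Paupar are associated with neural regulators. Rmst (ENSMUSG00000112117.1), a lincRNA that binds the NSC transcription factor SOX2, had a region of 11200 bp at chr10:92164001-92175200, which reached 10030 bp upstream and took in 1170 bp of the gene. It was covered over 5000, 8000, 11000 and 7800 bp, and the start site was under a peak in every library except shCTR replicate 1. The conditions overlapped at Rmst, because shCTR replicate 2 lay above shPHF8 replicate 2. Paupar (ENSMUSG00000102424.2), transcribed upstream of the neural regulator Pax6 and annotated as a single exon, was covered over 2600, 3600, 3600 and 5200 bp of 5200 bp at chr2:105659201-105664400. Its start site was under a peak in all 4 libraries, and every base within 1 kb of it was covered in each. Halr1 (ENSMUSG00000085412.7), a lincRNA, was covered over 5200, 8000, 5200 and 4600 bp of 9600 bp at chr6:52099801-52109400. The conditions overlapped at Halr1 and met at 3600 bp at Paupar, and the Halr1 start site was covered in shCTR replicate 1 and shPHF8 replicate 2 only.

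H19 (ENSMUSG00000000031.16), the maternally expressed RNA of the imprinted H19 and Igf2 domain, had a region of 5400 bp at chr7:142577801-142583200. It was covered over 3800, 1000, 5400 and 4200 bp. Both shPHF8 libraries were above both shCTR libraries, with 4200 against 3800 bp for the nearest pair, and the shCTR libraries lay further apart than that. The region took in 343 bp of the gene and 5057 bp upstream, and the start site was under a peak in replicate 1 of each condition and in neither replicate 2. Of a list of 9 imprinted noncoding RNAs, 7 had a start site covered in all 4 libraries and Snhg14 in none. Over all 8122 autosomal lincRNA and antisense genes, 6.00% of start sites were covered in all 4. H19 was the only gene of the list among the 406 regions. Meg3, Rian and Mirg lay in regions of at least 20 kb, and the regions of Kcnq1ot1, Airn, Nespas and Peg13 overlapped a protein-coding gene. Rian and Peg13 are moreover annotated as other types than lincRNA or antisense.

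The pluripotency-associated transcripts Platr5 and Platr6 differed from each other. Platr6 was covered over 3400, 3200, 7200 and 4600 bp of 7600 bp at chr10:21841001-21848600, with both shPHF8 libraries above both shCTR libraries. Platr5 was covered over 3600, 2800, 2800 and 1600 bp of 3800 bp at chr1:88754401-88758200, where shCTR replicate 2 and shPHF8 replicate 1 were equal. The region held the whole of Platr5 and its start site was covered in every library. Rprl1, a ribonuclease P RNA-like gene of 238 bp, was likewise covered whole in every library, within 3000, 1800, 3400 and 3000 bp of a 3400 bp region at chr6:69324201-69327600. That region was 56.4% soft-masked and also overlapped the immunoglobulin variable pseudogene Igkv12-67. It lay 1438120 bp from the nearest gene of type protein-coding, a measure that leaves out gene segments of immunoglobulin types.

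Mirt1, a transcript named for its rise after myocardial infarction, was the one named RNA with fewer covered bases in both shPHF8 libraries. It was covered over 7000, 8400, 4600 and 6600 bp of 8400 bp at chr19:53460801-53469200. The gap between the nearest libraries, 7000 and 6600 bp, was smaller than that between the replicates of either condition. Pinc, a noncoding RNA of the pregnant mammary gland, was covered over 5200, 5800, 3800 and 8400 bp of 9000 bp at chr1:73399001-73408000, with the 2 shPHF8 libraries at both extremes. Pvt1, the lincRNA next to Myc, was covered over 1400, 3200, 2600 and 1400 bp of 3200 bp at chr15:62035401-62038600, where the lowest value was 1400 bp in each condition.

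The other 3 named genes also overlapped between conditions. The small nucleolar RNA host gene Snhg20 was covered over 2000, 2800, 3200 and 2400 bp of 3200 bp at chr11:117073001-117076200. All but 193 bp of that region lay upstream of the gene. Rab10os, antisense to Rab10, was covered over 4400, 4800, 4000 and 5400 bp of 5600 bp at chr12:3235401-3241000. Fhad1os2, antisense to Fhad1, showed the widest spread between replicates of these genes, at 1000, 6600, 4600 and 3800 bp of 7400 bp at chr4:141879201-141886600. Over all 13 regions the conditions overlapped in 10, both shPHF8 libraries were higher in 2 and lower in 1. Over the whole set of 406 regions these shares were 62.1% overlapping, 31.3% higher and 6.65% lower.

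**Figure D5:**
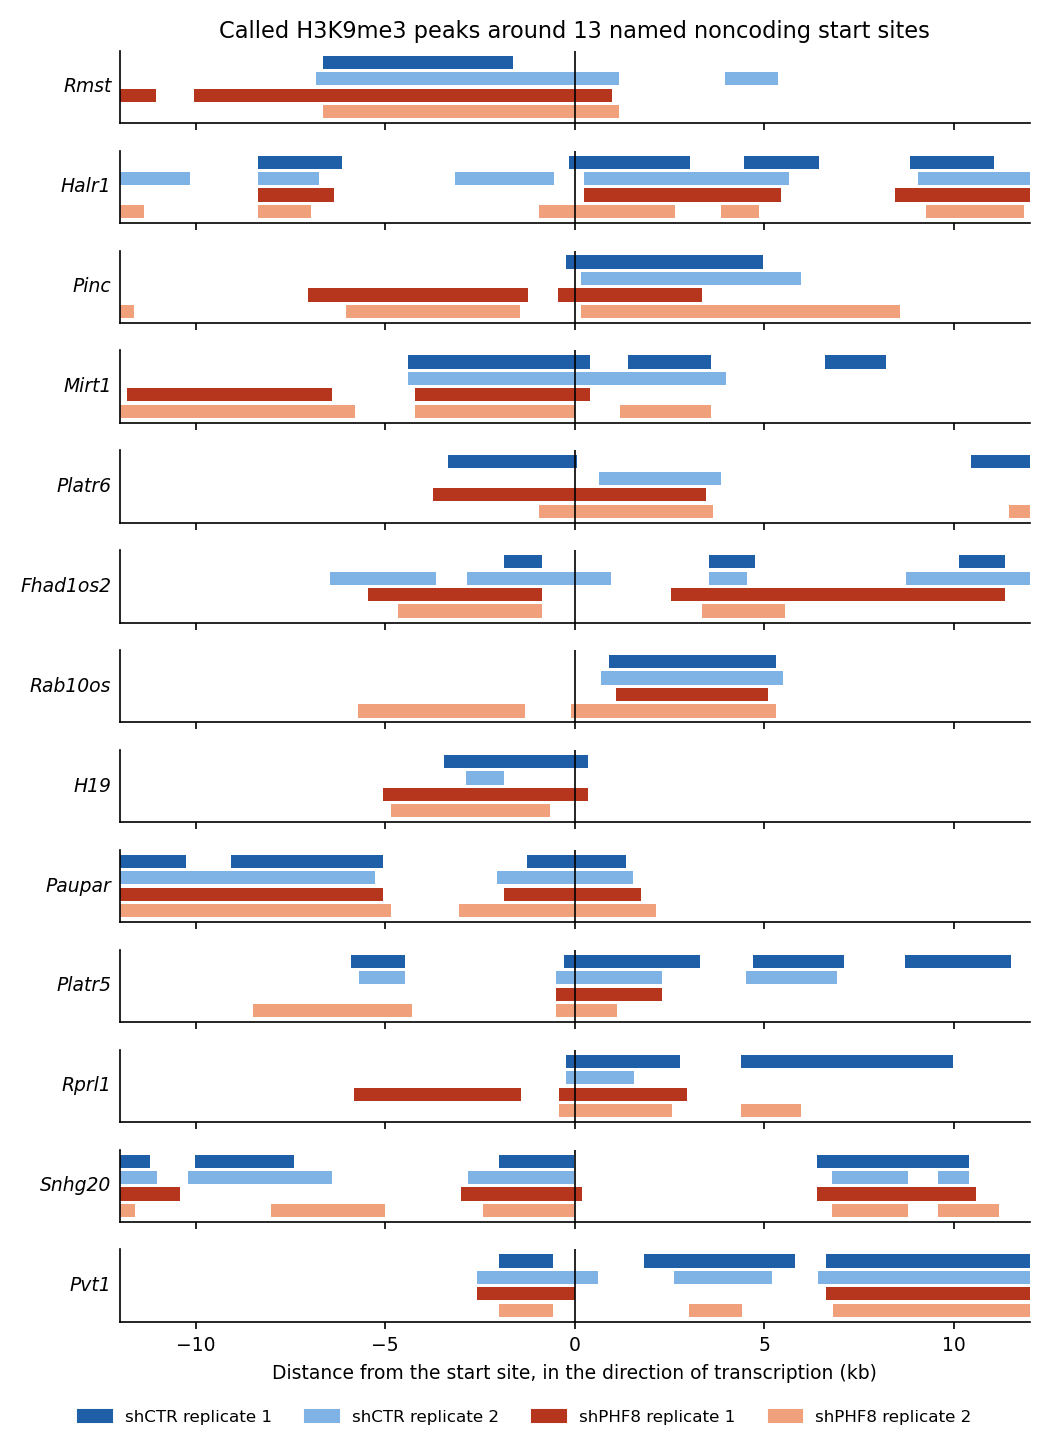
Called peaks (bars) within 12 kb of the start sites of the 13 noncoding RNAs with a given name, drawn against distance from the start site in the direction of transcription (kb), with 1 row per library and a line at the start site. Paupar, Platr5 and Rprl1 have a peak over the start site in all 4 libraries, whereas Rab10os, Fhad1os2 and Snhg20 have one there in a single library.

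Of a list of 27 RNAs with roles in neural cells, 26 were matched by symbol, 8 had a start site covered in all 4 libraries and 11 in none. Snhg11 is typed as protein-coding in the annotation used, and Sox2ot, Pantr2, Gas5 and Snhg1, among others, as neither lincRNA nor antisense. The list shares Meg3, Rian, Mirg and Peg13 with the imprinted list, and Rmst was its only gene among the 406 regions. The 11 with no covered start site were Sox2ot, Pantr1, Pantr2, Neat1, Malat1, Emx2os, Zeb2os, Lncpint, Gas5, Epb41l4aos and Snhg1. Over all 8122 autosomal lincRNA and antisense genes, 487 start sites (6.00%) were covered in all 4 libraries, beside 787 of 20807 (3.78%) protein-coding start sites. The body of Sox2ot, which contains Sox2, held 2 of the 406 regions, at Gm34599 with 2400, 2400, 5400 and 3000 bp of 5400 bp, and at Gm42205 with 5200, 1800, 3800 and 6400 bp of 9800 bp. The start site of Sox2ot itself was under no peak.

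The widest region, 19600 bp at chr5:127097201-127116800, enclosed the 788 bp lincRNA Gm43475 and was covered over 14200, 8600, 17000 and 18000 bp. Gm36855 followed with 10400, 11400, 13000 and 16600 bp of 19000 bp at chr9:43504401-43523400. In both regions each shPHF8 library was above each shCTR library. C030007H22Rik ran the other way, with 16200, 18400, 14000 and 15600 bp of 18800 bp at chr1:89401801-89420600. The region of Gm454 and Gm43645 (18600 bp) was higher in both shPHF8 libraries, and those of 4930505K14Rik (18400 bp) and Gm47066 (18000 bp) overlapped between conditions.

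Coverage was most complete at Gm42849, where 10600, 10800, 11000 and 10600 bp of 11000 bp lay under peaks, a mean share of 97.7%. Gm46328 and AC117261.1 followed with mean shares of 97.4 and 96.1%. Repeats were soft-masked over 73.3% of the Gm42849 region, 66.1% of that of AC117261.1 and 19.7% of that of Gm46328. The least covered region, Gm28826, had 1200, 1200, 10400 and 1600 bp of 10400 bp, a mean share of 34.6%. Its log2 ratio of 2.32, the highest of the 406, thus came from shPHF8 replicate 1, since the other shPHF8 library covered 1600 bp against 1200 bp in each shCTR library. Gm17033 had the same form, with 1400, 1800, 7200 and 1800 bp of 7200 bp. Such a region remained among the 406 because the nearest libraries were less than 1.5 times apart.

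Regions whose start site was covered in all 4 libraries were covered more evenly. In these 163 regions the median covered share was 74.1, 74.2, 89.3 and 78.6% in shCTR replicates 1 and 2 and shPHF8 replicates 1 and 2, and the median log2 ratio was 0.17. In the other 243 regions the shares were 60.0, 63.3, 85.5 and 70.0% and the median log2 ratio was 0.33. A larger covered share makes a covered start site more likely, so the 2 measures are not independent. In the 20 regions over antisense genes the median log2 ratio was 0.17, with 7 higher, 1 lower and 12 overlapping. Over the whole set of 406 regions, 31.3% were higher, 6.65% lower and 62.1% overlapping.

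Some regions held several start sites or lay close together. A single start site was present in 390 regions, 2 in 14 and 3 in 2. The region of Gm14342 and Gm27032, which also holds Mir124a-3, was covered over 4800, 6600, 6800 and 7600 bp of 7600 bp, and the region of Gm37233 holds Mir5103. The region of Gm48024, 4930533K18Rik and Gm48036 was covered over 10600, 7600, 11000 and 11400 bp of 12000 bp. That of Gm26917, Gm42418 and AY036118 was covered over 6600, 7800, 9000 and 10000 bp of 10000 bp at chr17:39840801-39850800. The annotation places the ribosomal RNA gene CT010467.1 in the latter, so reads there may come from other rRNA copies and its values are uncertain.

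Chromosome 13 held 42 of the 406 regions, 3.09% of its 1359 shared regions under 20 kb, and chromosome 19 held 3, or 0.461%. All chromosomes together held 406 among 26200 shared regions. Chromosome 13 has the most noncoding genes of these types, 555, and chromosome 19 the fewest, 221, so the start sites that could be met differ in number. Runs of at least 3 regions with gaps of no more than 500 kb numbered 22 and took in 82 regions. The run with the most regions, 6 at chr13:43494601-44227600, comprised Gm47683, Gm32939, Gm47728, Gm20751, Gm2233 and A330076C08Rik. Neighbouring regions share their surroundings and are not independent.

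The regions lay a median 45550 bp from the nearest protein-coding gene, with 19 within 3 kb and 105 at 100 kb or more. A zinc finger gene (Zfp or Zscan) lay within 50 kb of 12 regions (2.96%), beside 2.88% of all shared regions under 20 kb. The median log2 ratio was 0.25 in the 71 regions within 10 kb of a protein-coding gene and 0.30 in the 105 at 100 kb or more. The genes had a median length of 6942.5 bp, beside 6890.5 bp over all 8122, and a median of 3 exons, as did all 8122.

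In base composition the 406 regions lay between regions of the same kind over protein-coding start sites and regions away from both. Median GC content was 46.2%, beside 48.8% in 994 regions chosen by the same limits over protein-coding start sites and 44.5% in 11554 regions with neither a protein-coding gene nor a noncoding start site. The median soft-masked share was 25.0%, beside 20.7 and 31.0%, and the median ratio of observed to expected CpG was 0.21, beside 0.32 and 0.19. Median widths were 7200, 7200 and 5200 bp, and wider regions have a greater chance of holding a start site. A CpG ratio of at least 0.6 was found in 1 region, that of Gm26917, Gm42418 and AY036118. These differences were not tested, since regions are not replicates.

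At least 50% of the region was soft-masked in 28 regions and less than 20% in 121. The median log2 ratio was 0.24 in the former and 0.25 in the latter. Across the 406 regions, the mean covered share had a Spearman correlation of −0.015 with width, 0.032 with the soft-masked share and 0.16 with GC content, all given as descriptions over points that share 4 libraries.

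A set of 4 short motifs was searched on both strands of the 300-base windows at all 424 start sites. TATAAA, the letters of the TATA box, was present in 17.9% of these windows and in 14.4% of those of all 8122 noncoding genes. CCAAT was present in 36.3 and 35.6%, TGCCGC in 7.08 and 6.89% and AATAAA in 23.1 and 24.4%. In the windows printed above, AATAAA occurred at Halr1 and CCAAT at Gm43475, while the other 3 windows held none of the 4 motifs. Occurrences of different motifs can share bases. The start base itself was soft-masked at 96 of the 424 genes (22.6%), beside 18.4% of all 8122.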

How the data were processed

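H3K9me3 ChIP-seq was analysed from 4 libraries, 2 shCTR and 2 shPHF8. The 2 input libraries were left out. The authors deposited 1 list of SICER2 broad peaks per library in mm10 coordinates, holding positions only. The study's methods name SOAPaligner/SOAP2 for alignment, whereas the submitters' processing notes list Bowtie2 2.3.5.1, SAMtools 1.9 and deepTools. The window, gap, false discovery rate and use of input are not given in the sources used here. The study states read counts per library, but the lists carry none, so no interval was set on a call. By the study's counts, shPHF8 replicate 2 had the fewest uniquely mapped reads of the 4 libraries, and the rest had similar numbers. A call can depend on depth and on these settings.

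Starts were read as 0-based and ends as inclusive, which makes widths multiples of 200 bp. Peaks of the 4 libraries on chromosomes 1 to 19 were merged where they overlapped or touched. GENCODE M21 gave gene types, and the start site was the 5′ end of the gene record. Protein-coding overlap meant any overlap with the gene body. Sequence and soft-masking came from GRCm38. Python 3.11.15, numpy 2.4.6, scipy 1.17.1, pysam 0.24.0 and samtools 1.23.1 were used. Merging and selection were tested on simulated data. The regions, gene lists and comparisons were chosen with earlier results of these data known. Named regions are the 6 widest, the 13 over genes with a given name, 3 on each side of the ratio limit in each direction, the 3 most and 3 least covered, the 3 with most start sites, and those of listed genes. Regions over Sox2ot, over Gm37233 and in runs were named after their values were seen. Alternatives changed 1 choice at a time. A sequence window of a named region and a neighbouring gene are not reported here.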

Additional observations from a re-analysis of the deposited data

How the results depend on the processing

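Over 15 alternatives, 60 of 75 values stayed within 1.5 times the main count or, for the median log2 ratio, within the spread of 0.10 between replicates. Requiring at least 50% of the region covered in every library left 218 regions, of which 65 were higher in both shPHF8 libraries, with a median log2 ratio of 0.14. Regions under 10 kb gave 83 higher of 299, and the lower of the 2 other ratio limits tried gave 83 of 356. In the main choice 127 of 406 were higher. Each alternative chose its regions anew. Scaling covered bases to the same total gave 430 regions, 63 higher and 112 lower, and turned the median log2 ratio to −0.084. Leaving out protein-coding start sites only, with gene bodies allowed, gave 609 regions. Of these, 48 were lower and 268 had a start site covered in all 4 libraries, beside 27 and 163 of 406 in the main choice. With each library left out in turn, the number of regions ranged from 329 to 379, the higher count from 151 to 172, the lower count from 43 to 70, the median log2 ratio from 0.13 to 0.26 and the regions with a start site covered in all remaining libraries from 168 to 205. With fewer libraries, fewer have to be apart, and the regions are also chosen anew with the ratio limit applied to fewer libraries. The part of each in these counts was not tested, and neither was the cause of the other changes. No paired analysis was possible because the results come from no test and the labels tie no shCTR library to an shPHF8 library beyond the replicate number. The lists hold no height, so a weak peak and a strong one cannot be told apart.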
